A study of Drosophila melanogaster with 2 samples.

Results

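The maternal and gap genes are the 10 genes bcd, nanos, osk, cad, hb, Kr, kni, gt, tll and hkb, taken by name from the Ensembl annotation of the fly genome assembly dm6, and all 10 were found among its 13968 protein-coding genes. Peaks were counted as theirs when the summit, the position of highest signal in a peak, lay inside the gene or within 10 kb of it. The data come from chromatin immunoprecipitation with sequencing (ChIP-seq), in which DNA bound by a protein is recovered with an antibody and sequenced. Whole Drosophila melanogaster embryos of 0 to 24 h that carried CG7372 fused to eGFP were used with an antibody against GFP, in 2 biological replicates of 1 group. CG7372 is annotated as Phs. There was no second condition, and no control library was analysed here, so the results describe where peaks were called and no test between groups was possible.

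These genes lay out the head-to-tail axis of the embryo. The mother places bcd RNA at the anterior and osk and nanos RNA at the posterior of the egg, and she also supplies RNA of cad and hb. The proteins Bicoid, Caudal and Hunchback regulate the gap genes hb, Kr, kni and gt in broad bands of the early embryo, mostly through enhancers near each gene, while Nanos represses translation of hb RNA and Oskar builds the germ plasm. At the ends of the embryo, tll and hkb are switched on by signalling through the receptor Torso. Since the embryos were pooled over 0 to 24 h and over all cells, binding in a small part of the cells or stages cannot be told apart from weak binding.

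The deposited data are 8 peak lists. Peaks had been ranked by the irreproducible discovery rate (IDR), an estimate of how likely a peak is not to recur between the inputs compared. Each ranked list holds nearly all candidate peaks, and each thresholded list holds those at an IDR of about 1% or less, which corresponds to a score of 830. The conservative list of the series (4594 peaks) was used as the main list. The others are a second series-level list (4782) and the lists of replicate 1 (2805) and replicate 2 (3081), each with its ranked list of 54414 to 98987 peaks. The authors gave each peak a signal whose scale the files do not name, so signals are compared here only within a list or as ranks. Read counts were not given, so sequencing depth is unknown.

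Peaks in the conservative list lay around 4 of the 10 genes, bcd, nanos, osk and cad, and around none of hb, Kr, kni, gt, tll and hkb. Of all protein-coding genes, 62.4% had such a peak inside or within 10 kb, so 4 of 10 is below that background in number; no test was made. The 4 genes had 11 peaks in all, of which osk had 4, nanos 3, bcd 2 and cad 2. No summit lay inside any of the 10 genes, while 8 lay upstream and 3 downstream of the gene. The summits at the gene's own transcription start site (TSS), taken as within 500 bp of it, were 1 at bcd and 1 at nanos, so 2 of 10 genes had one. Of all protein-coding genes 16.7% had one, and the 2 of 10 are near that background. Of the other 9 peaks, 3 lay within 500 bp of the TSS of another gene alone and 6 lay at no TSS. Of all peaks in the conservative list on the main chromosome arms 42.3% lay at a TSS of some gene, against 5 of these 11. For 10 of the 11 peaks the nearest TSS was that of another gene. Neither this count nor that of summits inside the gene was worked out for all protein-coding genes. Both therefore have no background here and are not read as a trait of these genes.

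**Figure D1:**
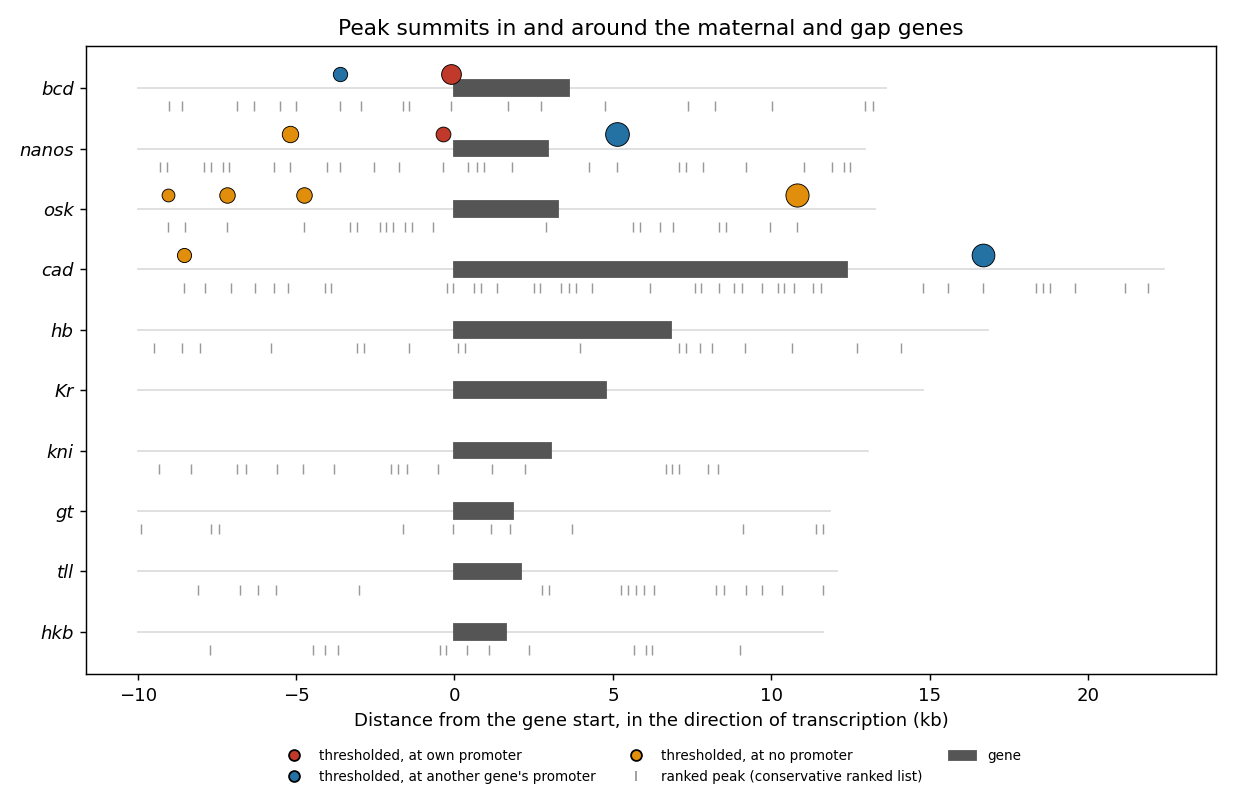
Peak summits around the 10 genes, drawn by distance in kb from the gene start in the direction of transcription (each row is 1 gene, the dark bar is the gene and the line its window). Circles are the 11 peaks of the conservative list, with areas in proportion to signal and coloured by class, and grey ticks are the peaks of the conservative ranked list. Circles appear at bcd, nanos, osk and cad alone, all outside the gene bars, and the row of Kr has no tick.

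The sequences at the summits are shown first for the bcd promoter peak, the 1 peak whose nearest TSS is that of a member, then for the 3 peaks of highest signal, and last for 2 peaks that hold a searched word. Each covers the summit and 50 bp on either side on the plus strand of dm6, 5′ to 3′, and was read from the RefSeq Release 6 sequence. Capitals mark the searched words CGTAT (taken from earlier results on these data), CAGGTA (bound by Zelda), GAGAG (GAGA factor), TAATCC (Bicoid), TTTTTTT (Hunchback) and TTTATG (Caudal), on either strand.
bcd promoter, chr3R:6759535-6759635: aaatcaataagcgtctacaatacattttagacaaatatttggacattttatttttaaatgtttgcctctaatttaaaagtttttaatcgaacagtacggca
downstream of nanos, at Nsun5 and CG42359, chr3R:19162318-19162418: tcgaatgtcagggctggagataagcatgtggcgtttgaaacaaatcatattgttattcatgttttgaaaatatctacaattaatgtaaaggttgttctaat
downstream of osk, near CG11964, chr3R:8945897-8945997: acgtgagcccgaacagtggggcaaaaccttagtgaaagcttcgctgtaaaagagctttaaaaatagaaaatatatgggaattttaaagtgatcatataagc
downstream of cad, at Pomp, chr2L:20787379-20787479: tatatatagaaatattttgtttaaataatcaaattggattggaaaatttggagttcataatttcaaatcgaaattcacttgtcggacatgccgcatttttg
upstream of bcd, at Ama, chr3R:6763034-6763134: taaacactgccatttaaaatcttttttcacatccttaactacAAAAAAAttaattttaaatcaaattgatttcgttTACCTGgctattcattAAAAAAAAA
upstream of osk, in pyd, chr3R:8926031-8926131: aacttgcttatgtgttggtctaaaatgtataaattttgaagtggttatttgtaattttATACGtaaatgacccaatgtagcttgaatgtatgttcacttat

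The first 4 of these sequences hold none of the 6 words. The Ama sequence holds TACCTG, the reverse complement of CAGGTA, centred 28.5 bp above the summit, and 2 runs of A that hold TTTTTTT on the other strand. The osk upstream sequence holds ATACG, the reverse complement of CGTAT, centred 10 bp above the summit. Over all 4593 summits of the conservative list on the main arms, windows of the same 101 bp held CGTAT in 30.8%, CAGGTA in 1.33%, GAGAG in 9.43%, TAATCC in 3.18%, TTTTTTT in 10.9% and TTTATG in 12.3%. Of the 11 windows here, the CGTAT, Zelda, Bicoid and Hunchback words were held by 1 window each, and none held the GAGA factor or Caudal word. The TAATCC lies in the window of the nanos promoter peak, centred 0.5 bp below the summit; that window is annotated as 5′ UTR of CG11779 and is not printed. The words are short and a match is no more than a description. The windows held 44.6 to 78.2% A and T, with a median of 68.3%, against a median of 63.4% over the whole list.

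Of the maternal genes, bcd had the clearest peak of its own. It encodes a homeodomain protein that activates hb at the anterior and represses translation of cad RNA there. The gene (FBgn0000166) lies on the minus strand of 3R from 6755842 to 6759466, and the summit lay at 3R:6759585, 119 bp upstream of its single annotated TSS. No other TSS lies within 500 bp of this summit. Its signal was 133 in the conservative list (rank 1220 of 4594), 75.2 in replicate 1 (rank 1180 of 54414 ranked peaks) and 55.4 in replicate 2 (rank 1548 of 58006). It passed the threshold in both replicates and in the series-level list, with IDR values of 4.96e-05 in replicate 1 and 0.000101 in replicate 2. The replicates placed the summit 109 and 149 bp upstream of the TSS.

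The other bcd peak lay 3618 bp upstream (3R:6763084, signal 70.1, rank 3185). It lay inside the longer transcript of Ama and 320 bp upstream of the TSS of the shorter one (the gene encodes a secreted cell adhesion protein), and within 500 bp of a TSS of lncRNA:CR45593. In replicate 1 its signal was 42.1 with an IDR of 0.0406, outside the threshold, and in replicate 2 it was 26.7 with an IDR of 0.00588, inside it. The conservative comparison gave it an IDR of 0.00238 and the series-level comparison one of 0.770, so its call rests on which inputs were compared.

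The gene nanos encodes an RNA-binding protein that represses hb translation at the posterior. It lies on the plus strand of 3R from 19157238 to 19160202 (FBgn0002962), and its promoter peak had its summit at 3R:19156873, 365 bp upstream of the TSS. The same summit lay 61 bp upstream of a TSS of CG11779, which is read in the other direction, so the peak cannot be given to 1 of these genes. Its signal was 74.4 in the conservative list (rank 2943), 36.7 in replicate 1 and 39.3 in replicate 2. The IDR was 0.0115 in replicate 1, just outside the threshold, and 0.00229 in replicate 2, so the peak was thresholded in replicate 2 alone.

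The strongest peak around nanos, and the strongest around any of the 10 genes, lay at the far side of the gene, 2166 bp past its end (3R:19162368). Its signal was 192 in the conservative list (rank 650), 110 in replicate 1 (rank 605) and 83.4 in replicate 2 (rank 746), and it passed the threshold in both. It lay 68 bp upstream of a TSS shared by Nsun5, a gene for an RNA methyltransferase, and CG42359. The third nanos peak lay 5183 bp upstream (3R:19152055, signal 91.7, rank 2179), in an intron of CG5835 and 1631 bp from its TSS. It was thresholded in replicate 1 (signal 58.9, IDR 0.000420) and not in replicate 2 (signal 28.6, IDR 0.646).

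The gene osk, whose protein nucleates the germ plasm at the posterior pole, had the most peaks, and none of them at its TSS. It lies on the plus strand of 3R from 8935126 to 8938395 (FBgn0003015). The strongest was 7552 bp past the gene's end (3R:8945947), between genes and 927 bp upstream of the TSS of CG11964. Its signal was 183 in the conservative list (rank 698), 96.6 in replicate 1 (rank 771) and 75.8 in replicate 2 (rank 898), and both replicates held it above the threshold.

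The other osk peaks lay upstream, all in introns of pyd, the gene for a cell junction protein. Their summits were 4741, 7173 and 9045 bp upstream of the osk TSS and 1511, 3943 and 5815 bp from the pyd TSS. Their signals were 82.3 (rank 2550), 81.8 (rank 2577) and 55.9 (rank 4052) in the conservative list. Support by the threshold fell off in the same order: the first was thresholded in both replicates, the second in replicate 2 alone and the third in neither. In replicate 1 the second had a higher signal than the first (47.2 against 45.1), with an IDR of 0.287 against 0.00797. The third had IDR values of 0.625 in replicate 1 and 0.0661 in replicate 2 and was also missing from the series-level list. At the osk TSS itself the conservative ranked list held no peak, and replicate 2 held 1 of signal 8.42, which ranked 46063.

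The gene cad encodes a homeodomain protein of the posterior, supplied by the mother and also made by the embryo. Its annotated extent (FBgn0000251) is 2L:20770731-20783135, plus strand. Its stronger peak (2L:20787429) lay 4294 bp past the gene's end and 227 bp upstream of the TSS of Pomp, a gene for a proteasome assembly factor. The signal was 176 in the conservative list (rank 745), 82.4 in replicate 1 (rank 1021) and 87.0 in replicate 2 (rank 693), above the threshold in both. The weaker peak lay 8529 bp upstream (2L:20762202, signal 68.3, rank 3306), in an intron of dia, a formin gene, 1902 bp from its TSS. Neither replicate held it above the threshold on its own (IDR 0.559 in replicate 1 and 0.0400 in replicate 2), and the series-level list did hold it.

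**Figure D2:**
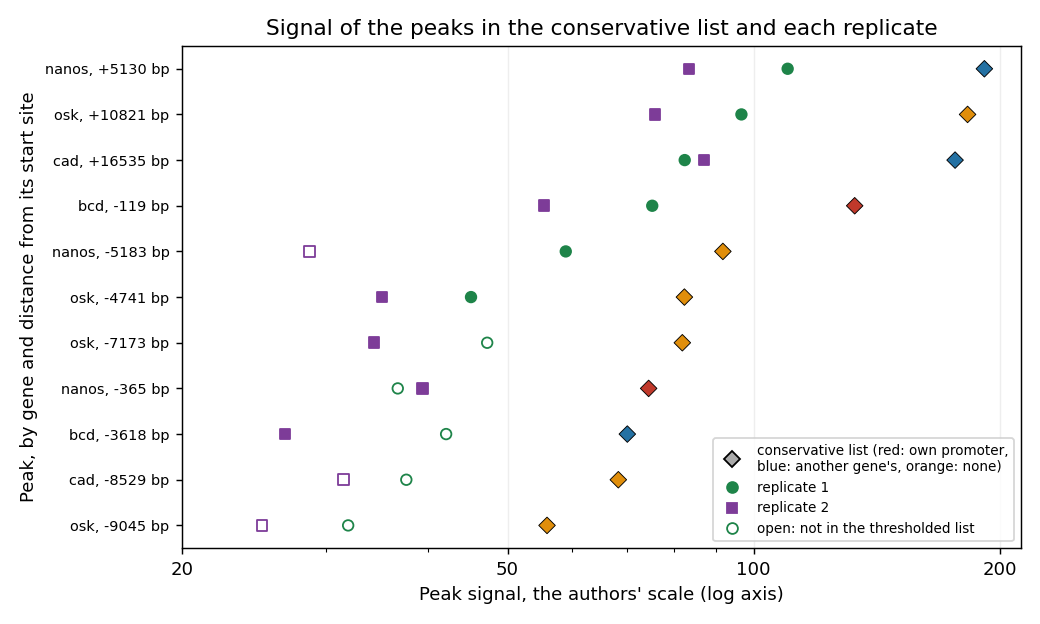
Signal of the 11 peaks (log axis), named by gene and distance of the summit from the gene's TSS in bp, in the conservative list (diamonds, coloured by class), replicate 1 (circles) and replicate 2 (squares), with open symbols where the peak was not in that replicate's thresholded list. The 4 peaks of highest signal are filled in both replicates, and the 2 weakest are open in both.

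Both replicates held 5 of the 11 peaks above the threshold, 1 replicate held 4 and neither held 2. In the whole conservative list 46.8% were thresholded in both replicates and 26.3% in neither. The conservative list was made from both replicates, so this support is a description and no separate evidence. The series-level list held 9 of the 11 peaks, against 90.1% of all conservative peaks. The median signal of the 11 peaks was 82.3 against 88.3 in the list, and 5 of the 11 were above the list's median. The 4 genes with a peak were bcd, nanos, osk and cad in each of the 4 thresholded lists, and around them no thresholded peak of another list lay outside the conservative peaks. In these lists 4 of 10 genes stood against 63.2% of protein-coding genes (series-level list), 49.1% (replicate 1) and 52.5% (replicate 2). A summit at the own TSS was found for 2 genes in the series-level list (background 16.8%), for bcd alone in replicate 1 (background 11.8%) and for bcd and nanos in replicate 2 (background 13.0%).

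The 10 kb limit sets which peaks count. The outermost peak inside it was the weakest osk peak, 9045 bp from the gene. For the genes with no peak inside it, the nearest ones outside were 10808 bp from hkb (at the promoter of CG9776, signal 69.8), 14252 bp from hb (at the promoter of Unc50, signal 98.7) and 16242 bp from kni (between genes, 2480 bp from the TSS of CG34260, signal 79.6). The nearest conservative peaks to gt, tll and Kr lay 30348, 33542 and 59254 bp away.

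Peaks below the threshold were present around most of the genes without a thresholded one. The conservative ranked list held a peak in or near 9 of the 10 genes, as for 98.1% of all protein-coding genes, and at the own TSS of 7 of 10, against 67.8%. Both counts are close to the background. For hb, kni, gt, tll and hkb it held 11 to 18 peaks a gene, where the median protein-coding gene had 19. Longer genes have longer windows, and these counts were set against the median without scaling for window length. The other ranked lists did not all place these genes below the median. They held 14 to 28 peaks a gene against a median of 21 (series-level), 6 to 13 against 11 (replicate 1) and 5 to 13 against 13 (replicate 2). In the conservative ranked list the strongest peaks of these genes had signals of 32.7 to 48.3, above 83.8 to 93.4% of that list. For bcd, nanos, osk and cad the strongest stood at 133 to 192, above 98.6 to 99.3% of it. These shares set the highest of many peaks around a gene against single peaks, so high shares are usual. The strongest peaks of all protein-coding genes were not worked out. The strongest peaks of hb, kni, gt, tll and hkb had signals of 19.9 to 27.4 in replicate 1 and 12.9 to 19.98 in replicate 2. Those of bcd, nanos, osk and cad had 75.2 to 110 and 55.4 to 87.0. The genes were grouped by having a thresholded peak or none. The threshold divides the genes by much the same values, so a gap between the groups is largely built in. Such ranges were not worked out for all protein-coding genes, and these are a description.

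**Figure D3:**
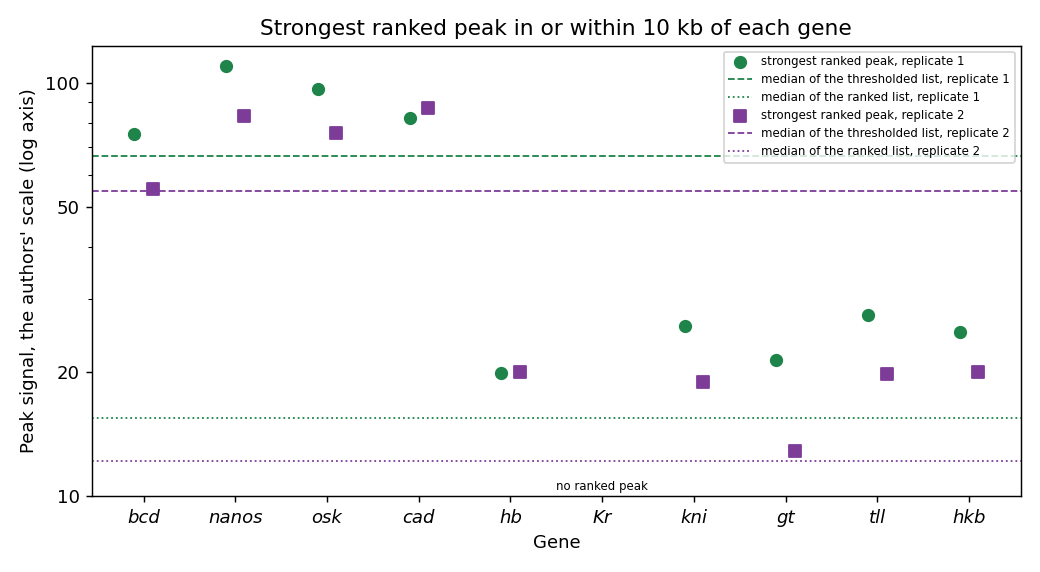
Signal of the strongest ranked peak in or within 10 kb of each gene (log axis) in replicate 1 (circles) and replicate 2 (squares), with the median signal of each replicate's thresholded list (dashed) and ranked list (dotted). In replicate 1 bcd, nanos, osk and cad stand at 75.2 or more and hb, kni, gt, tll and hkb at 27.4 or less. In replicate 2 they stand at 55.4 or more and at 19.98 or less. The first 4 are the genes with a thresholded peak, so a gap is largely built in. Kr has no ranked peak.

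Among the gap genes, hb encodes a zinc finger protein with maternal and zygotic RNA, read from 2 annotated TSS. Its strongest ranked peak lay 1439 bp upstream of a TSS (signal 32.7 in the conservative ranked list, IDR 0.704), and a weaker one lay 337 bp downstream of a TSS (25.7, IDR 0.516). In the replicates the strongest peaks near hb had signals of 19.9 and 19.96, and they lay at different places, 5785 and 1453 bp upstream.

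The gene kni encodes a protein of the nuclear receptor family that acts as a repressor in the abdomen. In the conservative ranked list it had the strongest peak of hb, kni, gt, tll and hkb, 9323 bp upstream, with a signal of 48.3. In the replicates this order did not hold: its strongest peak had a signal of 25.9 in replicate 1, below that of tll, and of 18.9 in replicate 2, below those of hb, tll and hkb. Its IDR was 0.0417 in the conservative comparison and 0.559 in the series-level one. At its own TSS the strongest ranked peak had a signal of 10.01 in the conservative ranked list, above 18.8% of that list.

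The gene hkb, a zinc finger gene of the embryo's ends, had its strongest peak of the conservative ranked list at its promoter, 264 bp upstream of the TSS, with a signal of 37.0 and an IDR of 0.0897 in the conservative comparison and 0.729 in the series-level one. In replicate 2 it was also the strongest (225 bp upstream, signal 19.98, IDR 0.614), while in replicate 1 the strongest lay 6327 bp upstream with a signal of 24.99, and the strongest at the TSS lay 390 bp downstream with a signal of 16.1. For comparison, cad had ranked peaks at its own TSS too, the strongest 240 bp upstream with a signal of 39.99 and an IDR of 0.0451. In replicate 1 the strongest there was at 323 bp upstream (signal 27.0, IDR 0.347) and in replicate 2 at 185 bp upstream (signal 18.3, IDR 0.561).

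The genes tll, which encodes an orphan nuclear receptor of the ends, and gt, which encodes a bZIP repressor, had their strongest ranked peaks far from the start. For tll, in the conservative ranked list, it lay 10324 bp downstream of the TSS (signal 35.3, IDR 0.392), and no ranked list held a peak within 500 bp of its TSS. For gt it lay 9107 bp downstream (36.6, IDR 0.316), and at the TSS the conservative ranked list held 1 peak of signal 14.3, above 31.3% of the list. The gene gt had the fewest ranked peaks after Kr in the conservative ranked list (11), in replicate 1 (6) and in replicate 2 (5). In the series-level ranked list gt and bcd had 14 each.

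The gene Kr, which encodes a zinc finger protein of the central gap domain, had no peak in any of the 8 lists. Its nearest ranked peaks lay 10572 bp away in replicate 1 and 46929 to 50187 bp away in the other ranked lists. Of all protein-coding genes, 1.20% had no ranked peak inside or within 10 kb in any of the 4 ranked lists. Whether reads could be placed around Kr, and whether the lists used here are complete there, was not tested.

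The genes differ in how many others start nearby. Around nanos 6 other protein-coding genes start within the window, around bcd and osk 3 each and around cad 1, while around Kr, kni and tll there are 0, around hb and gt 1 each and around hkb 3. The median protein-coding gene has 5. Of the genes with 0 to 3 such neighbours, a split chosen after these values were seen, 49.7% had a conservative peak inside or within 10 kb, and of those with 4 or more 68.9% had one. With 3 neighbours each, bcd had 2 peaks, osk 4 and hkb 0, and with 1 neighbour each, cad had 2 and hb and gt 0. The part of the neighbours in the count of 4 of 10 was not tested.

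Other genes of the same pathways were counted from a list of 39 genes in 5 groups. A conservative summit lay at the own TSS of 8 of the 39 (20.5%), near the background of 16.7%, and inside or within 10 kb of 29 (74.4%), where the background is 62.4%. By group, a summit lay at the own TSS of 1 of 5 genes of the anterior system and RNA localisation, 2 of 10 of the posterior system and germ plasm, 1 of 9 of the terminal system, 3 of 10 head gap and gap-like genes, and 1 of 5 maternal activators and cofactors. The strongest was at gro, which encodes the corepressor Groucho, with a signal of 326 (rank 232) in the conservative list, 145 in replicate 1 and 181 in replicate 2. It was followed by Trl, the gene of the GAGA factor, at 219 (rank 519), with 106 and 108 in the replicates, and by cnc, a bZIP gene with a role in the head, at 177 (rank 736), with 108 and 72.3. No other TSS lay within 500 bp of these 3 summits.

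The paired POU domain genes nub and pdm2, which act as gap-like genes, had signals of 144 (rank 1071) and 106 (rank 1721), again at summits shared with no other gene. In replicates 1 and 2 the signals were 71.2 and 74.8 at nub and 67.0 and 35.3 at pdm2. The remaining members of the list with a summit at the TSS shared it with a neighbour. They were brat, which acts with nanos in repressing hb translation, at 77.8 (with Polr1D), gcl, which acts in germ cell formation, at 74.2 (with CG14767) and stau, whose RNA-binding protein localises bcd and osk RNA, at 68.9 (with Spn55B). Ranks for these were 2784, 2958 and 3263.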

How the data were processed

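ChIP-seq peak lists on dm6 were analysed for 2 biological replicates of CG7372-eGFP embryos, per the labels sheared by sonication to 200 to 800 bp. Per the file listings deposited with the samples, the series-level lists derive from both replicates' alignments and further files. For the aligner and peak caller, names and settings were not given in the sources used here. Deposited files give a signal and an IDR-based score for each peak, and the ranked lists also the −log10 of the IDR. A further 16 columns of compared inputs were not used. The conservative thresholded list is part of 4677 ranked peaks with a score of 830 or more. 1 of its 4594 peaks lies off the main arms.

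Genes and 23697 distinct start sites came from Ensembl release 115 (BDGP6.54, transposable elements left out) and sequence from RefSeq Release 6, the same assembly. Summits were placed with Python 3.11.15, pandas 2.3.3 and numpy 2.4.6. Replicate support needed 1 bp of overlap, and the overlapping peak of highest signal was used. Placement was tested on simulated peaks. No statistical test was made, since there is 1 group. A rule set which genes are named: all 10 genes, the genes at or nearest each peak, and pathway genes with a summit at the TSS. Of the pathway genes, 2 were matched through renamed symbols. The genes, lists and words were chosen with earlier results of these data known.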

Additional observations from a re-analysis of the deposited data

How the results depend on the processing

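The 5 counts (peaks, genes with a peak, genes with a summit at their own TSS, peaks at another promoter alone, peaks at no promoter) were recomputed under 10 alternatives, and 37 of the 50 values stayed within 1.5 times. A window of 20 kb gave 20 peaks around 7 genes (hb, kni and hkb were added), 6 at another promoter and 12 at none. A window of 5 kb gave 6 peaks, 1 of them at no promoter. Peaks at or above the median signal numbered 5, with 2 at no promoter and 1 gene (bcd) with a summit at its own TSS. A promoter distance of 200 bp also left 1 such gene. The shares of all protein-coding genes were not recomputed for these windows, signal limits and promoter distances. The counts under them, such as 7 genes at 20 kb, therefore have no background here and cannot be set against the 62.4% found at 10 kb. Without replicate 1 or without replicate 2 there were 9 and 6 peaks around the same 4 genes, 2 and 1 genes with a summit at the own TSS, 4 and 3 peaks at no promoter, and 3 and 2 at another promoter. The gene lost without replicate 2 was nanos, whose promoter peak had an IDR of 0.0115 in replicate 1 and stood in the conservative and series-level lists. Merging overlapping peaks, or using start sites of protein-coding genes alone, changed none of the 5 counts. Depth is unknown, so a gene without a peak is a gene where none was called in these lists.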
